A study of Mus musculus with 12 samples.

Results

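The genes described here encode chromatin remodelers and the enzymes that write, erase or read marks on histones and DNA. They are 55 of the 54446 genes in the count files, taken by symbol from a list that was drawn up with the RIP-seq results of these data in view, and all 55 were found. It was drawn up to follow genes whose IP/Input was higher after irradiation, as for *Kmt2d*, or lower, as for *Atrx*. The IP/Input of these genes in either condition and its change are therefore given as a description. The comparisons of the Inputs alone and of the IPs alone both enter IP/Input. Their adjusted p-values, from a fit over all genes, are thus not independent of the choice of genes and are given as a description too.

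The cells were CD11b+ myeloid cells, sorted from tumors that the mouse colon carcinoma line MC38 had formed in wild-type mice. These mice carried loxP-flanked *Ythdf2* alleles (*Ythdf2* f/f) according to the study's methods, in the unirradiated control (Ctrl) and in the irradiated group (IR) alike. IR was a single local dose of 20 Gy, and cells were collected on day 3 after it. Each condition had 3 pools of cells from several mice, which the study calls technical replicates, and each pool gave an Input library and a library of the RNA recovered with an anti-YTHDF2 antibody (IP), 12 libraries in all.

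YTHDF2 is a cytoplasmic reader of N6-methyladenosine (m6A) in mRNA and hands bound transcripts to the deadenylation and decay machinery. Chromatin remodelers use ATP to slide, evict or exchange nucleosomes, whereas histone methyltransferases, acetyltransferases and demethylases set the marks that reader proteins then bind. In myeloid cells these regulators are known for shaping the enhancers and promoters of inflammatory genes. Most of them are large proteins with long coding sequences.

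The methylated adenosine sits in a short consensus whose most frequent core in mRNA is GGAC. For the genes with the 3 highest and the 3 lowest changes of IP/Input, a script searched the coding exons of the representative transcript for the 60-base window with the most GGAC, read 5′ to 3′ on the transcript strand of mm10 (GENCODE M21), and the windows are shown here because they carry the letters that m6A readers are tied to. Capitals mark GGAC, which cannot overlap itself.
*Kmt2d*: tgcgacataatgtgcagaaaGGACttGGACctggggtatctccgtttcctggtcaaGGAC
*Tet3*: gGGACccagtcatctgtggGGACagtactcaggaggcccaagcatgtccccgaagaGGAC
*Kat6a*: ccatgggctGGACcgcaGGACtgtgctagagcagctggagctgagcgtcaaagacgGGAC
*Atrx*: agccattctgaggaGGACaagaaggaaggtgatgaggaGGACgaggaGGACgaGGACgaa
*Chd7*: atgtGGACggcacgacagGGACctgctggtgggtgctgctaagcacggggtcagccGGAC
*Baz1a*: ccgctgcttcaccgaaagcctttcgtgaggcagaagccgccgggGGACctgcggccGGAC
The window of *Kmt2d* lies at chr15:98850765-98850824 on the minus strand, in coding exon 34 of 54, and that of *Tet3* at chr6:83369084-83369143 on the minus strand, in coding exon 11 of 11. The window of *Kat6a* lies at chr8:22862318-22862377 on the plus strand, in coding exon 1 of 16. For *Atrx* the window lies at chrX:105851211-105851270 on the minus strand, in coding exon 15 of 35, for *Chd7* at chr4:8855018-8855077 on the plus strand, in coding exon 30 of 37, and for *Baz1a* at chr12:54985716-54985775 on the minus strand, in coding exon 1 of 26. The best window held 4 GGAC in *Atrx*, 3 in *Kmt2d*, *Tet3*, *Kat6a* and *Chd7*, and 2 in *Baz1a*. Of 14496 protein-coding genes, 71.1% had a 60-base window with at least 2, 20.3% one with at least 3 and 2.345% one with at least 4. These windows could cross exon junctions, whereas those printed above lay within a single coding exon. When the coding sequences were cut end to end into 440710 windows of 60 bases, 25.3% held at least 1. Windows with several copies were printed for genes with a higher and for genes with a lower IP/Input in IR. Each was picked for its number of copies, so nothing about either group is read from them. A GGAC is a run of letters, not a measured m6A site.

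Reads were counted on genes by the authors, with 27852948 to 42382532 counts per library, so that 3 counts were worth 0.0753 to 0.110 CPM. The share of uniquely aligned reads on no gene was 27.0% ± 0.026 for Ctrl Inputs and 24.7% ± 0.065 for IR Inputs. It was 42.3% ± 0.46 for Ctrl IPs and 51.4% ± 2.43 for IR IPs (SD, n = 3 each). The IR IPs also differed most among themselves beyond counting noise, at 17.2 to 21.5 times the variance that counting gives. Myeloid markers were high in the Inputs, with the summed level of 10 genes at 6641 to 7221 CPM in Ctrl and 8839 to 9102 CPM in IR, and 7 of them were higher in IR, among them *Itgam*, which encodes CD11b (log2 0.79), while *Csf1r* and *Adgre1* were lower (log2 -0.12 and -0.24). The 6 T cell markers summed to 0.671 to 1.97 CPM over all Inputs, with *Trac* at 0 in every Ctrl Input, and the 4 B cell markers to 19.05 to 28.4 CPM. Markers of NK cells summed to at most 0.605 CPM and those of fibroblasts to at most 12.8 CPM, with those of endothelium in between. The 5 epithelial markers summed to 122 to 129 CPM in Ctrl and 93.1 to 98.0 CPM in IR, most of it *Cdh1*, with *Krt19* at 0. Of 8 proliferation markers 6 were lower in the IR Inputs, among them *Mki67* (log2 -1.01), while *Top2a* and *Pcna* were not called (log2 -0.026 and -0.087). The summed level of all 8 was 1557 to 1574 CPM in Ctrl and 1177 to 1189 CPM in IR. Most of this difference was *Mki67*, with means of 690 CPM in Ctrl and 361 CPM in IR.

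All 55 genes passed the filter of at least 10 counts in at least 3 libraries in every comparison, and their lowest count in any library was 516. Together they took 1.22 to 1.26% of all counts in each Ctrl Input, 1.21 to 1.25% in each IR Input, 3.60 to 3.63% in each Ctrl IP and 3.005 to 3.07% in each IR IP. Levels in the Ctrl Input per kilobase of exon ranged from 1.46 to 121 CPM per kb, with a median of 14.5. Exon length took the exons of all annotated transcripts of a gene together. It was 7826 bases in *Brd2*, whose representative transcript has 4657, and 23148 bases in *Chd9*, whose representative transcript has 11565. The highest level per kb was that of *Baz1a*, a subunit of the ACF remodeler, at 121 ± 4.19 (SD, n = 3). *Smarca4*, the BRG1 ATPase of SWI/SNF, followed at 84.7 ± 1.29 (SD, n = 3), and *Chd4*, an ATPase of the NuRD complex, at 81.1 ± 1.47 (SD, n = 3). On this length *Baz1a* stood far above both, and the means of *Smarca4* and *Chd4* lay further apart than the SD of either. The SD covers the pools and not the choice of length, and the order of genes by another length was not tested. The lowest levels per kb were those of the acetyltransferase gene *Kat6b* at 1.46 ± 0.14 (SD, n = 3), the remodeler gene *Chd9* at 1.79 ± 0.092 (SD, n = 3) and the H3K4 demethylase gene *Kdm5b* at 1.84 ± 0.019 (SD, n = 3). *Chd9* and *Kdm5b* did not differ beyond their spread.

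In Ctrl the IP held more of most of these transcripts than the Input. The test over all genes called 43 of the 55 higher in the IP, where 34.1% of 17416 genes were called higher, and 7 lower, where 34.6% of genes were called lower. In IR it called 44 higher, against 32.1% of 18650 genes, and 6 lower, against 30.5% of genes. Since the list was drawn up from such values, nothing is read from these shares. The median log2 IP/Input of the 55 was 1.19 in Ctrl and 1.13 in IR, and that of all genes tested was 0.018 and 0.10. Both conditions called 41 genes higher, and both called 5 lower, namely the Polycomb genes *Ezh1*, *Suz12* and *Eed*, the WICH subunit gene *Baz1b* and the maintenance DNA methyltransferase gene *Dnmt1*. *Setd1a* was called in neither. The share of all genes called in both conditions is not given here, and nothing is read from these counts either.

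The highest IP/Input in Ctrl was that of *Emsy*, which encodes a BRCA2-binding protein of repressor complexes. Its log2 IP/Input in the Ctrl pools was 2.92, 2.93 and 2.90 and in the IR pools 1.95, 2.03 and 2.01 on the scale shared by all libraries, and the groups did not overlap. The fit within each condition, which scaled only that condition's libraries, gave 3.04 ± 0.038 (SE) in Ctrl and 2.12 ± 0.047 (SE) in IR. Next in Ctrl were *Chd7* at 2.94 ± 0.035 (SE) and *Chd6* at 2.56 ± 0.057 (SE), both CHD-family remodelers. The lowest were *Dnmt1* at -1.03 ± 0.059 (SE), *Eed* at -0.79 ± 0.091 (SE) and *Chd1*, whose product binds methylated H3K4, at -0.55 ± 0.062 (SE). In IR the highest was *Kmt2d* at 2.40 ± 0.046 (SE), then *Emsy* and *Tet3* at 2.01 ± 0.078 (SE), and the lowest were *Eed* at -0.80 ± 0.10 (SE), *Suz12* at -0.59 ± 0.067 (SE) and *Dnmt1* at -0.48 ± 0.094 (SE).

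**Figure D1:**
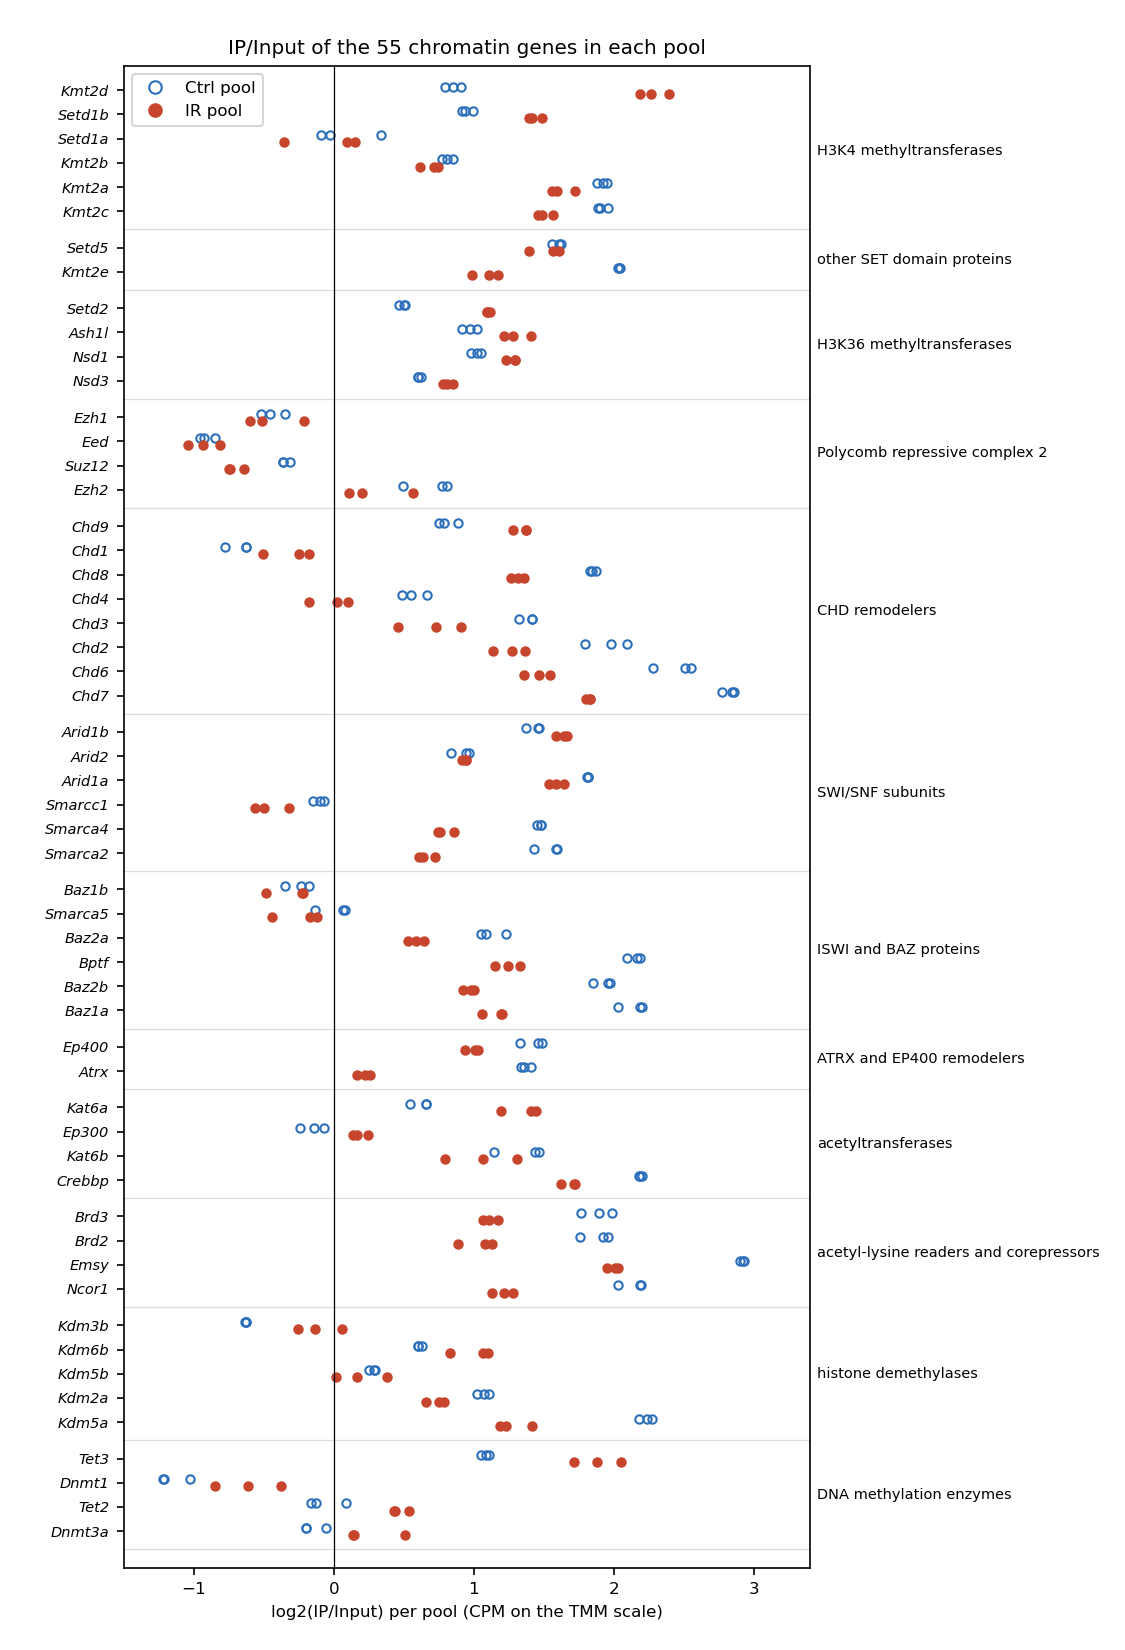
log2 IP/Input of each of the 55 genes on the x axis, computed per pool from TMM-scaled CPM, with genes grouped by role on the y axis (open circles, 3 Ctrl pools; filled circles, 3 IR pools). The IR pools of *Kmt2d* lie above its Ctrl pools, and those of *Atrx* below, and the acetyl-lysine readers and corepressors lie below in all 4 genes whereas the DNA methylation enzymes lie above in all 4. Over all genes, every IR pool lay below every Ctrl pool in 22.6% and above in 13.2%.

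The change of IP/Input with IR went in both directions among these genes. It was called higher in IR for 16 of the 55, where 6.28% of 20720 genes were called, and lower for 28, where 13.9% of genes were called, and 11 were not called. The median change was -0.26 on the log2 scale, against -0.083 over all genes tested. In 17 genes the IP/Input of every IR pool lay above that of every Ctrl pool (13.2% of all genes), in 28 every IR pool lay below (22.6% of all genes), and in 10 the pools overlapped. With libraries scaled by their totals only, the median change of all genes was 0.31 higher and 21 of the 55 were called higher and 20 lower. Of all 20720 genes, library totals called 2843 higher and 890 lower, against 1301 and 2881 with TMM. The more frequent direction over all genes thus depended on the scaling. Under that scaling all 16 of the genes called higher stayed so and 20 of the 28 called lower stayed so, and the sign turned for *Kmt2a* and *Arid1a* among the latter. By role, all 4 acetyl-lysine readers and corepressors, both ATRX and EP400, 6 of 8 CHD remodelers, 4 of 6 ISWI and BAZ proteins and 4 of 6 SWI/SNF subunits were called lower, with *Ep400* and *Smarcc1* no longer called and the sign of *Arid1a* turned with library totals. All 4 DNA methylation enzymes were called higher under both scalings, and so were 3 of 4 H3K36 methyltransferases, to which library totals added *Nsd3*.

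**Figure D2:**
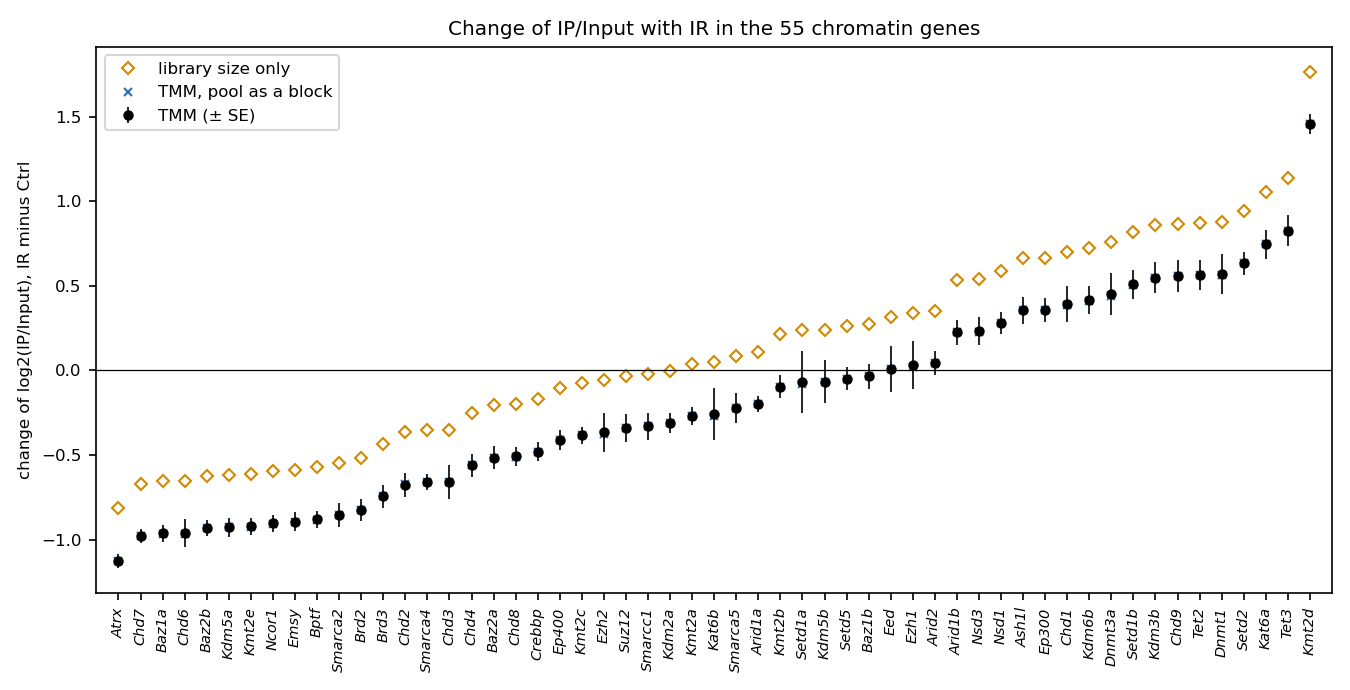
Change of log2 IP/Input, IR minus Ctrl, for each of the 55 genes in rising order on the x axis, from the TMM-scaled fit (black, ± SE), the same fit with the pool as a block (blue crosses) and the fit scaled by library totals only (open diamonds). Library totals move every gene up, and *Atrx* at -1.13 and *Kmt2d* at 1.46 stand at the ends.

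Among the H3K4 methyltransferases, *Kmt2d* had the highest change of all 55 genes. It encodes MLL4, which monomethylates H3K4 at enhancers. The Ctrl Inputs held 322, 318 and 313 CPM and the IR Inputs 168, 161 and 158 CPM. In the IP its level was 557, 575 and 587 CPM in Ctrl and 766, 777 and 828 CPM in IR. The IR Inputs were thus the low group of the Inputs and the IR IPs the high group of the IPs, with no overlap in either. The transcript fell in the Input by 1.05 on the log2 scale (SE 0.035, adjusted p = 1.02e-18 in the quasi-likelihood test of edgeR, Benjamini-Hochberg adjusted over all genes, as for every adjusted p here; all differences given with an SE are on the log2 scale) and rose in the IP by 0.50 ± 0.045 (SE, adjusted p = 9.38e-07). Its log2 IP/Input was 0.97 ± 0.038 (SE) in Ctrl and 2.40 ± 0.046 (SE) in IR, a change of 1.46 ± 0.058 (SE).

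The other H3K4 methyltransferase genes differed from *Kmt2d*. *Setd1b*, a SET1-type enzyme that trimethylates H3K4 at promoters, changed in the same directions with smaller values, -0.35 ± 0.042 (SE) in the Input and 0.25 ± 0.067 (SE) in the IP. Its call in the IP was lost without any 1 of the 3 Ctrl IPs or without IR IP replicate 3, at 0.20 to 0.26 on the log2 scale (adjusted p = 0.0509 to 0.0793). *Kmt2c*, the closest relative of *Kmt2d*, had the lowest change of this class at -0.38 ± 0.053 (SE), with -0.13 ± 0.033 (SE) in the Input and -0.42 ± 0.044 (SE) in the IP (adjusted p = 3.9e-06), and its change was -0.08 and not called with library totals only. *Kmt2a*, which encodes MLL1, fell in the IP by 0.23 on the log2 scale (SE 0.045) and gave -0.05 ± 0.035 (SE) in the Input, which was not called, and its change of -0.27 ± 0.054 (SE) turned to 0.04 with library totals only, where the IP gave -0.031 and was not called. *Kmt2b* and *Setd1a* were not called in the IP, and *Setd1a* had the lowest level of the 55 genes over the Ctrl Inputs (22.0 CPM) and shares 52.3% of its exon bases with 2 other genes, 1 of them on the same strand, so its values are uncertain.

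Both other SET domain proteins fell in the IP, where 9.85% of all genes did. With library totals only, however, *Setd5* gave 0.035 and was not called. *Kmt2e*, whose product carries a SET domain without clear methyltransferase activity, gave 0.37 ± 0.030 (SE) in the Input and -0.46 ± 0.040 (SE) in the IP. *Setd5*, a partner of NCoR and HDAC3, gave -0.21 ± 0.037 (SE) in the Input and -0.17 ± 0.053 (SE) in the IP (adjusted p = 0.0435), and its change of IP/Input was -0.05 ± 0.067 (SE) and was not called. The fall of *Setd5* in the IP was called with all libraries and without IR IP replicate 2, but not without any other single library, at -0.17 to -0.12 (adjusted p = 0.0926 to 0.165). The change of *Kmt2e* was -0.92 ± 0.050 (SE), and a gene on the other strand overlaps 9.31% of its exon bases.

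All 4 H3K36 methyltransferases fell in the Input, where 23.9% of all genes and 48.1% of coding genes of at least 5 kb did. In the IP none was called with TMM. With library totals only all 4 were called higher, at 0.19 to 0.30 on the log2 scale, where 2638 of 19255 genes were. *Setd2*, the trimethylase of H3K36, had 108, 109 and 109 CPM in the Ctrl Inputs and 74.1, 74.2 and 73.0 CPM in the IR Inputs. Its level was 154, 150.4 and 154 CPM in the Ctrl IPs and 158, 158 and 158 CPM in the IR IPs. The IR Inputs all lay below the Ctrl Inputs, while the IR IPs lay slightly above the Ctrl IPs. The Input of *Setd2* fell by 0.64 on the log2 scale (SE 0.040, adjusted p = 4.8e-13), the IP gave 0.08 ± 0.062 (SE, adjusted p = 0.436), and the change of IP/Input was 0.63 ± 0.068 (SE). *Ash1l* and *Nsd1*, which add lower methyl states to H3K36, gave -0.39 ± 0.043 (SE) and -0.38 ± 0.035 (SE) in the Input. *Nsd3* had the smallest change of this class at 0.23 ± 0.083 (SE) and was not called.

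The Polycomb repressive complex 2 methylates H3K27. Its 4 genes moved little in the Input, where *Ezh2* was the one called, at -0.12 ± 0.047 (SE). In the IP, *Ezh2*, the main catalytic subunit, gave -0.40 ± 0.088 (SE, adjusted p = 0.00527) and the core subunit *Suz12* -0.34 ± 0.086 (SE, adjusted p = 0.0129), both lower. With library totals only neither was called, in the IP or for the change, and without Ctrl IP replicate 2 *Suz12* was not called in the IP (log2 -0.31, adjusted p = 0.0712). *Ezh1*, the alternative catalytic subunit, and the core subunit *Eed* were called in neither fraction with TMM (*Ezh1* was called higher in the IP with library totals only), and their change of IP/Input was 0.03 ± 0.14 (SE) and 0.01 ± 0.14 (SE). *Ezh2* alone of this class was higher in the IP than in the Input, at 0.81 ± 0.059 (SE) in Ctrl and 0.42 ± 0.092 (SE) in IR.

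Of the 8 CHD remodelers, 6 fell in the IP and *Chd9* rose, where 9.85% of all genes fell and 6.12% rose. With library totals only *Chd2* and *Chd6* were no longer called lower. *Chd7*, which acts at enhancers, had 555, 525 and 534 CPM in the Ctrl Inputs and 628, 604 and 618 CPM in the IR Inputs. In the IPs it went from 3786, 3805 and 3839.8 CPM in Ctrl to 2184, 2149 and 2199 CPM in IR. The groups overlapped in neither fraction, and the gap was wide in the IPs and narrow in the Inputs. The Input rose by 0.12 ± 0.031 (SE, adjusted p = 0.00302) and the IP fell by 0.77 on the log2 scale (SE 0.028, adjusted p = 3.13e-11), with a change of IP/Input of -0.98 ± 0.041 (SE).

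*Chd6*, a related remodeler, rose most in the Input of all 55 genes. Its Ctrl Inputs held 99.2, 85.7 and 86.5 CPM and its IR Inputs 141, 134 and 140.4 CPM. Among the IPs, those from Ctrl held 481, 487 and 508 CPM and those from IR 361, 368 and 409.6 CPM. No pool of one condition fell among those of the other in either fraction. The Input rose by 0.53 ± 0.048 (SE, adjusted p = 7.12e-10), the IP gave -0.34 ± 0.055 (SE) and the change was -0.96 ± 0.083 (SE). *Chd2*, *Chd3*, *Chd4* and *Chd8* had changes from -0.68 for *Chd2* to -0.51 for *Chd8*, and all 4 fell in the IP, with *Chd2* the one of them that rose in the Input. Other genes, 1 of them on the same strand, overlap 19.3% of the exon bases of *Chd2*. *Chd9* went the other way, with -0.17 ± 0.057 (SE) in the Input (adjusted p = 0.0149), 0.47 ± 0.078 (SE) in the IP (adjusted p = 0.000472) and a change of 0.56 ± 0.093 (SE). *Chd1* fell in the Input by 0.44 on the log2 scale (SE 0.042), was not called in the IP and had a change of 0.39 ± 0.11 (SE).

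SWI/SNF complexes evict and slide nucleosomes through the ATPases *Smarca2* and *Smarca4*. *Smarca4* fell in the IP by 0.59 on the log2 scale (SE 0.038, adjusted p = 1.27e-08) and was not called in the Input, at -0.02 ± 0.030 (SE). *Smarca2* rose in the Input by 0.41 ± 0.037 (SE) and fell in the IP by 0.36 on the log2 scale (SE 0.053), and had the lowest change of this class at -0.85 ± 0.070 (SE). The DNA-binding subunits differed: *Arid1b*, at 0.23 ± 0.075 (SE), was the one called higher, a call that the pool as a replicate block ended at 0.23, *Arid1a* was called lower at -0.20 ± 0.046 (SE) and turned to 0.11 with library totals only, and *Arid2* was not called at 0.04 ± 0.072 (SE). *Smarcc1*, a core subunit, fell in both fractions, at -0.20 ± 0.039 (SE) in the Input and -0.44 ± 0.074 (SE) in the IP.

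Among the ISWI and BAZ proteins, *Baz1a* pairs with the ATPase *Smarca5* in the ACF remodeler. *Baz1a* had 904, 852 and 852 CPM in the Ctrl Inputs and 956, 889 and 933 CPM in the IR Inputs. In the IP its level was 3693, 3885 and 3921 CPM in Ctrl and 1993, 2034 and 2147 CPM in IR. The Inputs of both conditions overlapped, whereas every IR IP lay far below every Ctrl IP. *Baz1a* fell most in the IP of all 55 genes, by 0.86 on the log2 scale (SE 0.034, adjusted p = 8.29e-11), gave 0.01 ± 0.032 (SE) in the Input (adjusted p = 0.791) and had a change of -0.96 ± 0.051 (SE).

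*Baz2b*, a bromodomain protein of other ISWI complexes, had 515, 484 and 488 CPM in the Ctrl Inputs and 680.3, 656 and 677 CPM in the IR Inputs. Its Ctrl IPs held 1856, 1875 and 1909 CPM and its IR IPs 1288, 1291 and 1358 CPM. The conditions did not overlap in either fraction, with IR high in the Input and low in the IP. The Input rose by 0.36 ± 0.032 (SE, adjusted p = 5.05e-10) and the IP fell by 0.49 on the log2 scale (SE 0.035, adjusted p = 6.58e-08), a change of -0.93 ± 0.048 (SE). *Bptf*, the reader subunit of NURF, fell in the IP by 0.72 on the log2 scale (SE 0.039) and *Baz2a*, of the nucleolar NoRC complex, rose in the Input by 0.28 ± 0.034 (SE) with -0.15 ± 0.054 (SE) in the IP, which was not called. *Smarca5* and *Baz1b* were lower in the Input and were not called for the change, at -0.22 ± 0.088 (SE) and -0.03 ± 0.074 (SE).

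*Atrx* had the lowest change of IP/Input of all 55 genes. ATRX, with DAXX, deposits histone H3.3 in heterochromatin. The Ctrl Inputs held 729, 714 and 722 CPM and the IR Inputs 891, 872 and 895 CPM. The Ctrl IPs held 1839.6, 1893 and 1847 CPM and the IR IPs 1040.2, 1046 and 1003 CPM. IR was the high group in the Input and the low group in the IP, with no overlap in either. The Input rose by 0.22 ± 0.028 (SE, adjusted p = 2.7e-07) and the IP fell by 0.82 on the log2 scale (SE 0.036, adjusted p = 2.32e-10). Its log2 IP/Input was 1.49 ± 0.033 (SE) in Ctrl and 0.34 ± 0.034 (SE) in IR, a change of -1.13 ± 0.042 (SE). *Ep400*, the ATPase of the TIP60 complex, fell in both fractions, by 0.17 in the Input and 0.50 in the IP on the log2 scale, with a change of -0.41 ± 0.060 (SE).

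**Figure D3:**
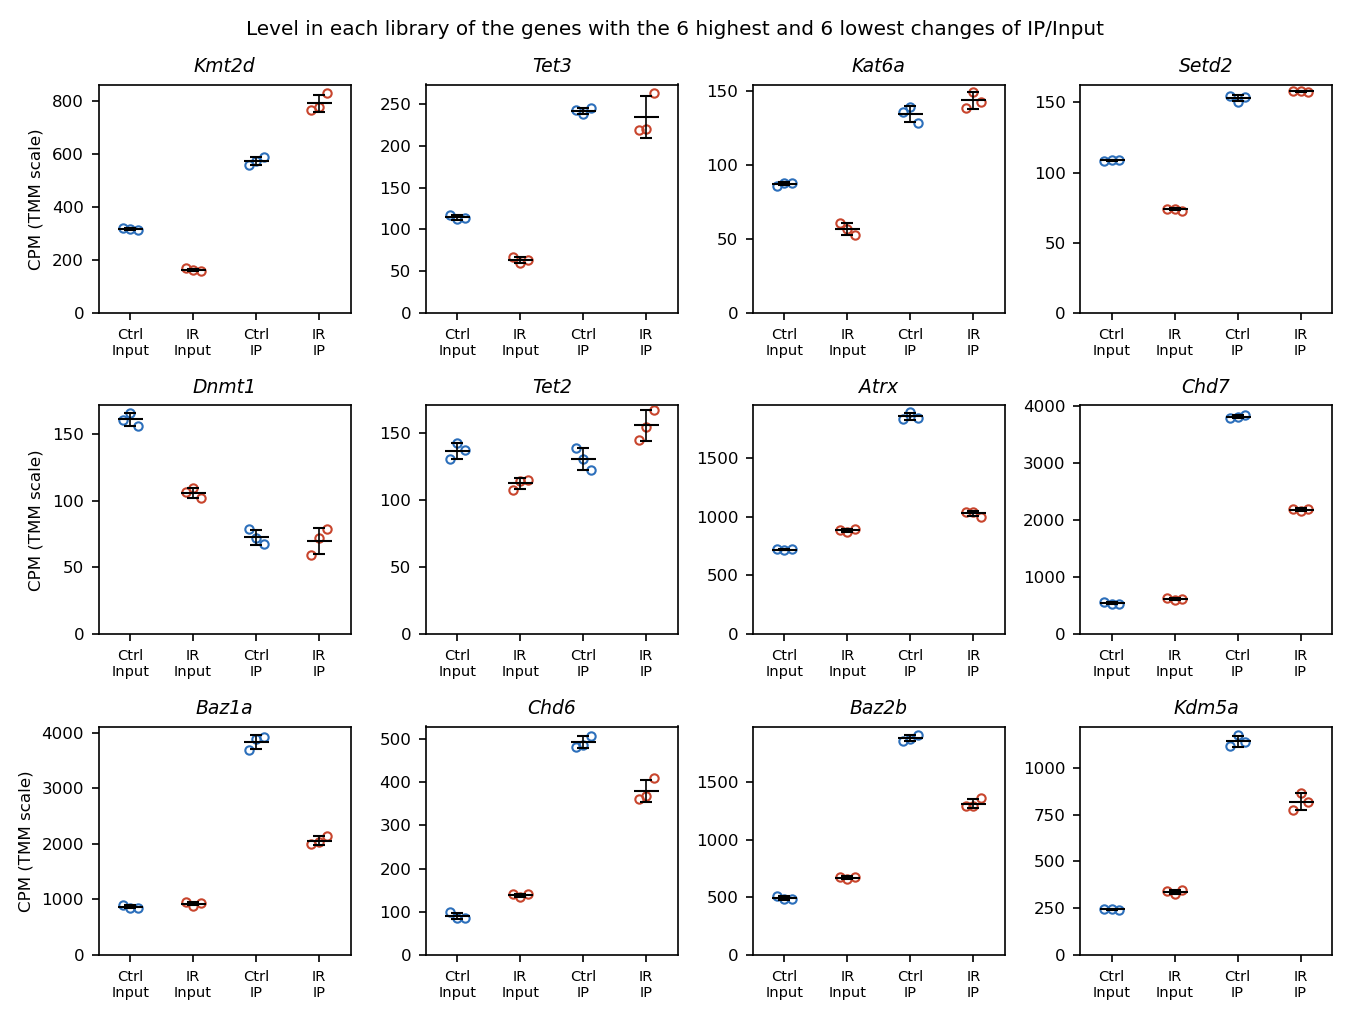
TMM-scaled CPM (y axis, from 0) in each library (circles) of the 4 groups on the x axis, with the mean and SD of 3 pools, for the genes with the 6 highest and the 6 lowest changes of IP/Input. In *Kmt2d*, *Tet3*, *Kat6a*, *Setd2*, *Dnmt1* and *Tet2* the IR Inputs lie below the Ctrl Inputs, and in *Atrx*, *Chd7*, *Baz1a*, *Chd6*, *Baz2b* and *Kdm5a* the IR IPs lie below the Ctrl IPs.

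The acetyltransferases split by gene. *Kat6a*, which encodes the H3K23 acetyltransferase MOZ, had 86.2, 88.3 and 88.2 CPM in the Ctrl Inputs and 60.8, 56.5 and 52.6 CPM in the IR Inputs. Among the IPs, those from Ctrl held 136, 139 and 129 CPM and those from IR 139, 149.7 and 143 CPM. The IR Inputs lay below all Ctrl Inputs, while the IPs of the conditions overlapped. Its Input fell by 0.71 on the log2 scale (SE 0.049, adjusted p = 3.86e-12), the IP gave 0.13 ± 0.067 (SE, adjusted p = 0.23), which became 0.33 and was called higher with library totals only (adjusted p = 0.00281), and the change was 0.75 ± 0.085 (SE). *Ep300* and *Crebbp* encode the paralogous acetyltransferases p300 and CBP that mark active enhancers. *Ep300* fell in the Input by 0.39 on the log2 scale (SE 0.039) and gave 0.06 ± 0.063 (SE) in the IP, or 0.26 and called higher with library totals only (adjusted p = 0.00745), and *Crebbp* gave 0.01 ± 0.033 (SE) in the Input and fell in the IP by 0.38 on the log2 scale (SE 0.042). Their changes of IP/Input were 0.36 ± 0.071 (SE) and -0.48 ± 0.055 (SE), and their log2 IP/Input in Ctrl was -0.03 ± 0.046 (SE) and 2.31 ± 0.035 (SE). *Kat6b*, the paralog of *Kat6a*, rose in the Input by 0.23 ± 0.074 (SE) and was not called for the change.

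The 4 acetyl-lysine readers and corepressors all rose in the Input and all fell in the IP. Of all genes, 21.0% rose in the Input and 9.85% fell in the IP, and 3.11% of those tested in both did both. *Brd2* and *Brd3* are BET proteins, which read acetylated histones, and *Ncor1* is the scaffold of a corepressor complex with HDAC3. In the Input *Brd2* rose by 0.38 ± 0.032 (SE), *Emsy* by 0.26 ± 0.038 (SE), *Brd3* by 0.16 ± 0.037 (SE) and *Ncor1* by 0.11 ± 0.031 (SE). In the IP the log2 changes were -0.36 ± 0.046 (SE) for *Brd2*, -0.55 ± 0.043 (SE) for *Emsy*, -0.50 ± 0.048 (SE) for *Brd3* and -0.70 ± 0.035 (SE) for *Ncor1*. Their changes of IP/Input lay between -0.90 for *Ncor1* and -0.74 for *Brd3*. Genes on the other strand overlap 9.78% of the exon bases of *Brd2*.

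Of the 5 histone demethylases, 2 rose and 2 fell in the Input, where 21.0% of all genes rose and 23.9% fell. *Kdm5a*, which demethylates H3K4, had 246, 244 and 241 CPM in the Ctrl Inputs and 341, 326 and 348 CPM in the IR Inputs. In the IP its level was 1115, 1174 and 1138 CPM in Ctrl and 774, 867 and 817 CPM in IR. The conditions did not overlap in either fraction, with IR high in the Input and low in the IP. The Input rose by 0.39 ± 0.033 (SE, adjusted p = 1.48e-10) and the IP fell by 0.45 on the log2 scale (SE 0.045, adjusted p = 2.7e-06), a change of -0.93 ± 0.056 (SE). Its paralog *Kdm5b* was called in neither fraction. *Kdm3b*, an H3K9 demethylase, fell in the Input by 0.29 on the log2 scale (SE 0.037) and rose in the IP by 0.35 ± 0.083 (SE, adjusted p = 0.00836), but 24.6% of its exon bases are overlapped by a gene on the other strand. *Kdm6b*, the inflammation-induced H3K27 demethylase of macrophages, fell in the Input by 0.35 on the log2 scale (SE 0.037) and gave 0.15 ± 0.070 (SE) in the IP, or 0.35 and called higher with library totals only (adjusted p = 0.00149). *Kdm2a*, an H3K36 demethylase, rose in the Input by 0.15 ± 0.032 (SE).

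All 4 DNA methylation enzymes fell in the Input, where 23.9% of all genes and 48.1% of coding genes of at least 5 kb did. *Tet3*, which oxidizes 5-methylcytosine, had 117, 112 and 114 CPM in the Ctrl Inputs and 66.7, 60.1 and 63.5 CPM in the IR Inputs. The Ctrl IPs held 243, 238 and 245 CPM and the IR IPs 219, 221 and 263 CPM. The Inputs were well apart, and the IPs overlapped, with 1 IR pool above the others. The Input fell by 0.93 on the log2 scale (SE 0.044, adjusted p = 2.24e-15), the IP gave -0.01 ± 0.069 (SE, adjusted p = 0.925) and the change was 0.83 ± 0.089 (SE).

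*Tet2*, the paralog best known in myeloid cells, had 131, 143 and 137 CPM in the Ctrl Inputs and 108, 114 and 115 CPM in the IR Inputs. Its Ctrl IPs held 139, 130.5 and 123 CPM and its IR IPs 145, 155 and 168 CPM. IR was low in the Input and high in the IP, without overlap. The Input fell by 0.36 on the log2 scale (SE 0.040, adjusted p = 2.56e-08) and the IP rose by 0.29 ± 0.074 (SE, adjusted p = 0.0134), a change of 0.56 ± 0.087 (SE). The rise in the IP was not called without Ctrl IP replicate 2 (log2 0.29, adjusted p = 0.0533) or replicate 3 (log2 0.25, adjusted p = 0.0753).

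*Dnmt1*, which copies methylation at replication, had 160.5, 166 and 156 CPM in the Ctrl Inputs and 106, 109 and 102 CPM in the IR Inputs. Among the IPs, those from Ctrl held 78.6, 71.7 and 67.1 CPM and those from IR 59.0, 71.7 and 78.7 CPM. The Inputs did not overlap and the IPs did. The Input fell by 0.68 on the log2 scale (SE 0.040, adjusted p = 1.23e-13). Of 8 proliferation markers 6 were lower in the IR Inputs as well, and their part in this fall was not tested. The IP gave -0.02 ± 0.11 (SE, adjusted p = 0.924) and the change was 0.57 ± 0.12 (SE). *Dnmt3a*, the de novo methyltransferase, had the smallest change of this class at 0.45 ± 0.12 (SE), with -0.33 ± 0.044 (SE) in the Input and 0.21 ± 0.11 (SE) in the IP, which became 0.41 and was called higher with library totals only (adjusted p = 0.0106).

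Over the whole list, the comparison of the Inputs shows how transcript levels differed after IR, and that of the IPs how the YTHDF2-recovered RNA did. In the Input 15 of the 55 rose, where 21.0% of 16914 genes did, and 27 fell, where 23.9% did. In the IP 5 rose, where 6.12% of 19255 genes did, and 28 fell, where 9.85% did. With library totals only, the Input kept its 15 and 27 calls, but in the IP 14 rose and 20 fell, and of the 8 falls no longer called the sign turned for *Setd5*. Over all 19255 genes in the IP, library totals called 2638 higher and 839 lower, against 1179 and 1896 with TMM, so the balance over all genes turned as well. With all 12 libraries in 1 fit, 15 rose and 16 fell in the Input, where 2621 of 20720 genes rose and 1500 fell. With TMM and each fraction on its own, the share of lower calls among the 55 was above that of all genes in both fractions. In the Input it was 49.1%, close to the 45.9% of other chromatin regulators and the 48.1% of coding genes with transcripts of at least 5 kb, which are described further on. The IR IPs also held the larger share of reads on no gene and differed most among themselves, and the part of this in the IP values was not tested. The genes were listed for their IP/Input, to which both fractions contribute, so these shares are no independent evidence. The largest rises in the Input were those of *Chd6*, *Smarca2* at 0.41 ± 0.037 (SE) and *Kdm5a*, and the largest falls those of *Kmt2d*, *Tet3* and *Kat6a*. The largest rises in the IP were those of *Kmt2d*, *Chd9* and *Kdm3b*, and the largest falls those of *Baz1a*, *Atrx* and *Chd7*. Fewer cells expressing a gene and less of its RNA per cell cannot be told apart in these bulk samples.

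Taking both fractions together, 12 of the 55 genes (21.8%) rose in the Input and fell in the IP, where 3.11% of 15958 genes tested in both did. They were *Kmt2e*, *Chd2*, *Chd6*, *Chd7*, *Smarca2*, *Baz2b*, *Atrx*, *Brd2*, *Brd3*, *Ncor1*, *Emsy* and *Kdm5a*, of which *Chd2* and *Chd6* lost the call in the IP with library totals only, leaving 10. The opposite, a fall in the Input with a rise in the IP, was seen in 5 genes (9.09%, against 1.55% of genes), namely *Kmt2d*, *Setd1b*, *Chd9*, *Kdm3b* and *Tet2*. With library totals only this count was 13, with *Setd2*, *Nsd1*, *Nsd3*, *Ash1l*, *Ep300*, *Kat6a*, *Kdm6b* and *Dnmt3a* added, and the calls of *Setd1b* and *Tet2* in the IP were lost with single libraries left out. Both patterns are those of a lower or a higher IP/Input, for which the genes were listed, so their excess over all genes is no independent evidence. Of the 55, 7.27% were called in neither fraction, against 47.5% of genes, and the part of this in the excess was not tested. A fall in the Input with no call in the IP was seen in 15 (27.3%, against 18.7%), and a fall in the IP with no call in the Input in 9 (16.4%, against 4.47%). The change of IP/Input rests on the same libraries as both of these comparisons. The 16 genes with a higher IP/Input had a median log2 change of -0.39 in the Input and 0.10 in the IP, and the 28 with a lower one of 0.094 and -0.45. In Ctrl the 16 had a median log2 IP/Input of 0.74 and the 28 of 2.003, and in IR of 1.31 and 1.23. The IP/Input of each condition enters the change by which these groups were split, so nothing further is read from these medians.

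**Figure D4:**
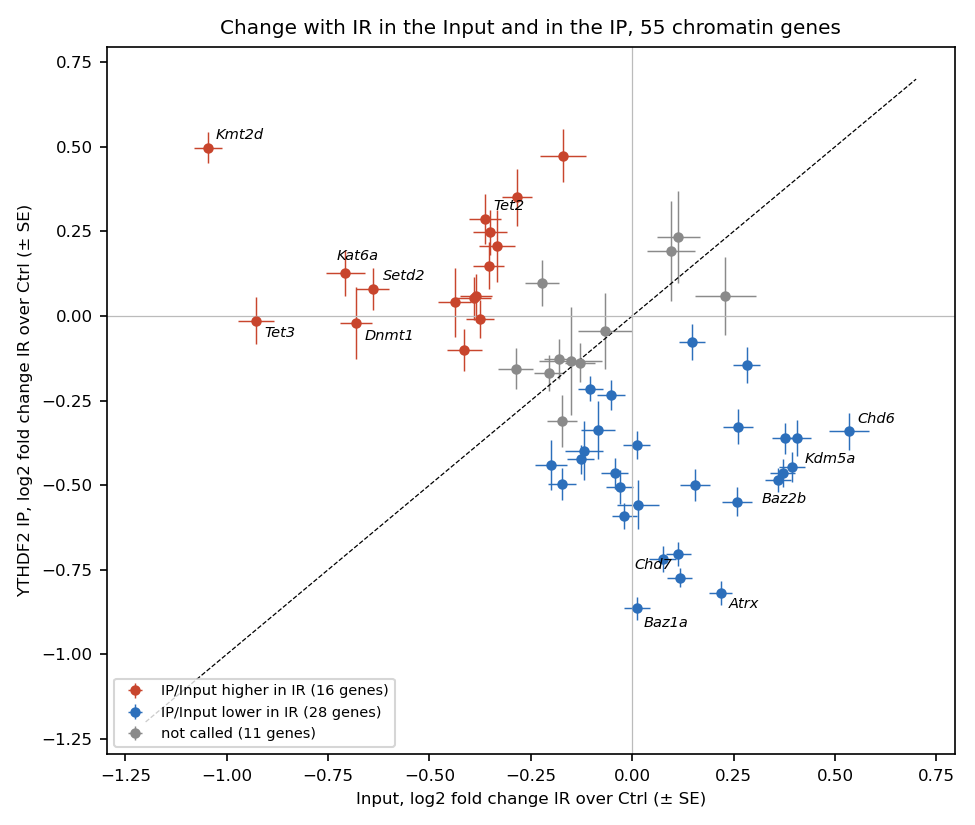
log2 fold change IR over Ctrl in the Input (x axis) and in the YTHDF2 IP (y axis), each ± SE, for the 55 genes, coloured by the call of the change of IP/Input (16 higher, 28 lower, 11 not called), with the line of equal change dashed. The genes with a higher IP/Input lie at the left, with Input falls down to -1.05, and those with a lower one lie at the bottom, with IP falls down to -0.86.

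Other chromatin regulators give the wider class. Of 134 such genes, listed by function, 133 were tested for the change of IP/Input, and 21 were called higher (15.8%, against 6.28% of all genes) and 25 lower (18.8%, against 13.9%), with a median of -0.013. In the Input 15 of 133 rose (11.3%, against 21.0%) and 61 fell (45.9%, against 23.9%). In the IP 10 of 132 rose (7.58%, against 6.12%) and 26 fell (19.7%, against 9.85%). In Ctrl 40 of 133 were called higher in the IP (30.1%, against 34.1%) and 69 lower (51.9%, against 34.6%). The highest changes were those of *Tet1* at 2.54 ± 0.67 (SE), of the corepressor gene *Rcor2* at 2.41 ± 1.27 (SE), which was not called, and of the de novo methyltransferase gene *Dnmt3b* at 1.32 ± 0.42 (SE). Among the lowest were those of the SWI/SNF subunit gene *Smarcd3* at -1.02 ± 0.65 (SE), not called, and of *Brd9*, a reader of the non-canonical SWI/SNF complex, at -0.88 ± 0.11 (SE). *Brd9* rose in the Input and fell in the IP, as did *Brd2* and *Brd3*.

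The 55 genes are long. Their representative transcripts had a median of 8350 bases, from 2067 in *Eed* to 19823 in *Kmt2d*, against 2930 over 14507 coding genes tested, and 50 of them reached 5 kb. Coding sequences had a median of 5604 bases against 1389, and exons numbered 27 against 9. The density of GGAC in the transcript, 4.05 per kb, and the GC content, 48.7%, were close to the medians of coding genes, 4.28 per kb and 50.8%. In Ctrl, 46.0% of 2408 coding genes of at least 5 kb, a cut chosen after values were seen, were called higher in the IP, and 29.1% lower. For the change of IP/Input, 20.3% of 2725 such genes were called higher and 11.7% lower, with a median of 0.17, and in the Input 13.4% of 2310 rose and 48.1% fell. In the IP, 13.1% of 2694 rose and 12.1% fell.

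Within the 55, transcript length had a Spearman correlation of 0.34 with the log2 IP/Input in Ctrl and of 0.023 with its change, across genes that share the same libraries. The change had a correlation of 0.17 with GC content and of -0.30 with the number of exons. Over 14507 coding genes, the change had correlations of 0.23 with transcript length, -0.053 with GC content and 0.15 with the number of exons. The 55 were listed for this change, so the values within them are a description. The genes with a higher and with a lower change had median lengths of 8939 and 8286 bases. Exons of 30 of the 55 genes are overlapped by another annotated gene in part, and reads there could be split or left uncounted depending on the strand option of the counting, which is not given in the sources used here.

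**Figure D5:**
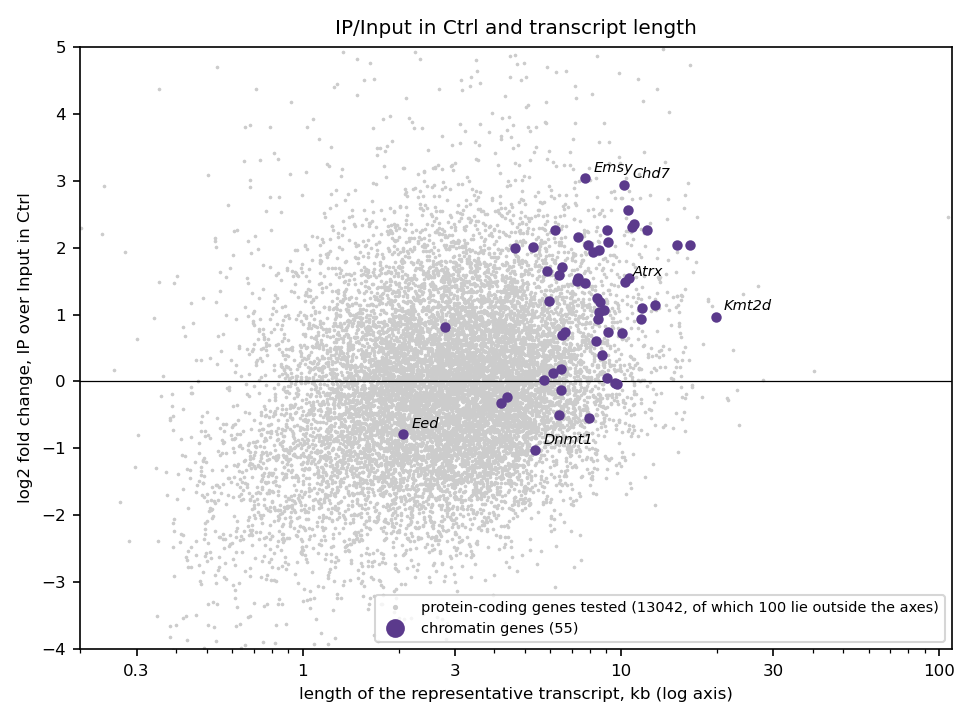
log2 IP/Input in Ctrl from the fit (y axis) against the length of the representative transcript in kb (log x axis) for the 55 genes (purple) and 13042 coding genes tested in that comparison (grey), of which 100 lie outside the axes. Most of the 55 lie at the right, above 5 kb, and spread from -1.03 in *Dnmt1* to 3.04 in *Emsy*.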

How the data were processed

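The authors deposited raw HTSeq counts per gene, made from reads trimmed by Trimmomatic 0.39 and aligned by HISAT to mm10 (GENCODE M19). The strand option of the counting and any removal of duplicates are not given in the sources used here. An Abcam antibody and mRNA isolation before the RIP stand in the labels, and an Aviva antibody, a lysate and a total RNA kit in the methods. Summary lines on uncounted reads (24.7 to 51.4% on no gene as group means) stayed out of library sizes.

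Members and lists were chosen with earlier results of these data known. Named genes were *Kmt2d*, *Atrx*, the 6 highest and 6 lowest by the change of IP/Input, the highest and lowest of it per role, the 3 highest and lowest by IP/Input in either condition, by the change in the Input and in the IP and by level per kb, and the same 3 for other regulators, of which 1 is not reported here. Other genes were named in lists of calls.

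Counts were TMM-normalized and tested with edgeR 4.0.16 (quasi-likelihood, R 4.3.3), keeping genes that reached 10 counts in 3 or more of the compared libraries, with a Benjamini-Hochberg threshold of 0.05, on the libraries of each comparison. SE is the absolute log2 change divided by the square root of F. The change is the interaction over 12 libraries. CPM use the TMM factors of all 12, so fitted ratios differ slightly from those of the plotted pools. Annotation came from GENCODE M21 (99.9% of identifiers matched). The steps were tested on simulated counts. The p-values measure only the spread between pools, which may be technical, and floors cover counting error only.

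Input and IP of a number came from the same lysate, per the study's methods, but their deviations from group means were hardly correlated (mean 0.0033 in Ctrl and -0.0068 in IR). Ctrl and IR pools were not paired. Alternatives were library totals, DESeq2's size factors, the DESeq2 1.42.0 test, no filter, at least 10 counts in every library, a GC offset, 1 fit of all 12 libraries, the pool as a block (also with the GC offset), and each pool or library left out.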

Additional observations from a re-analysis of the deposited data

Results flagged for a closer look

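The change of log2 IP/Input with IR differed from 0 by the interaction over all 12 libraries in 44 of the 55 genes. Of all 20720 genes, 6.28% were called higher and 13.9% lower. The change is the measure that the list of genes was drawn up with, so the values are a description.
The 16 higher changes on the log2 scale were, in falling order, *Kmt2d* 1.46, *Tet3* 0.83, *Kat6a* 0.75, *Setd2* 0.63, *Dnmt1* 0.57, *Tet2* 0.56, *Chd9* 0.56, *Kdm3b* 0.55, *Setd1b* 0.51, *Dnmt3a* 0.45, *Kdm6b* 0.42, *Chd1* 0.39, *Ep300* 0.36, *Ash1l* 0.35, *Nsd1* 0.28 and *Arid1b* 0.23.
Of the 28 lower changes, the 13 lowest were, in rising order, *Atrx* -1.13, *Chd7* -0.98, *Baz1a* -0.96, *Chd6* -0.96, *Baz2b* -0.93, *Kdm5a* -0.93, *Kmt2e* -0.92, *Ncor1* -0.90, *Emsy* -0.90, *Bptf* -0.88, *Smarca2* -0.85, *Brd2* -0.83 and *Brd3* -0.74.
The other 15 were *Chd2* -0.68, *Smarca4* -0.66, *Chd3* -0.66, *Chd4* -0.56, *Baz2a* -0.52, *Chd8* -0.51, *Crebbp* -0.48, *Ep400* -0.41, *Kmt2c* -0.38, *Ezh2* -0.37, *Suz12* -0.34, *Smarcc1* -0.33, *Kdm2a* -0.31, *Kmt2a* -0.27 and *Arid1a* -0.20. With library totals only, *Ep400*, *Kmt2c*, *Ezh2*, *Suz12*, *Smarcc1*, *Kdm2a*, *Kmt2a* and *Arid1a* were no longer called, whereas all 16 higher calls stayed.
Outside the counts on genes, the share of uniquely aligned reads on no gene was 51.4% in the IR IPs as a mean of 3, above the 42.3% of the Ctrl IPs. Its part in the values above was not tested.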

How the results depend on the processing

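All 12 genes with values in every library kept the direction and call of their change of IP/Input under all 14 alternatives, from 1.42 to 1.77 for *Kmt2d* and from -1.18 to -0.82 for *Atrx*. Scaling by library totals moved the median of all genes by -0.18 in Ctrl, 0.15 in IR, 0.31 for the change, -0.018 in the Input and 0.20 in the IP. Under it the members called lower for IP/Input in Ctrl numbered 11 (7 with TMM), and in the IP 14 were called higher and 20 lower (5 and 28). Of all genes, library totals called 6986 lower in Ctrl (6019 with TMM), and 2638 higher and 839 lower in the IP (1179 and 1896). With all 12 libraries in 1 fit, 15 rose and 16 fell in the Input (15 and 27), where 2621 of 20720 genes rose and 1500 fell. Values that had not been called turned sign for *Baz1a* in the Input and for *Tet3* and *Dnmt1* in the IP. *Baz1a* gave -0.0059 with library totals and -0.013 to 0.047 with a library left out. *Tet3* gave 0.19 with library totals, 0.038 with 10 counts in every library and -0.095 to 0.041 with a library left out, and *Dnmt1* gave 0.18, 0.030 and -0.11 to 0.094. The cause was not tested.

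Leaving out each pool or library gave 42 to 43 higher and 6 to 7 lower for IP/Input in Ctrl, 43 to 45 and 4 to 5 in IR, 13 to 17 and 27 to 28 for the change, 14 to 16 and 26 to 28 in the Input, and 3 to 6 and 25 to 28 in the IP, where *Setd1b* and *Tet2* were lost without Ctrl IP replicate 2 or 3, which left 3 called higher.

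With the pool as a replicate block the change was called higher in 15 and lower in 28, *Arid1b* being lost, and IP/Input was called higher in 42 and lower in 7 in Ctrl and in 44 and 6 in IR. The block with the GC offset gave 16 and 27 for the change.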
